A study of Mus musculus with 2 samples.

Results

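The genes described are the structural subunits of the mitochondrial respiratory chain and ATP synthase, in RNA from a mouse hair follicle stem cell line with a hairpin against the circular RNA circSmad5. They were taken by gene name: mitochondrially encoded names that start with mt-Nd, mt-Co, mt-Cyt or mt-Atp, and nuclear names of the Nduf, Sdh, Uqcr, Cox4 to Cox8 and Atp5 families, without names that contain -ps. This gave 94 of the 22383 genes in the table, of which 12 are encoded by mitochondrial DNA and 82 by the nucleus. mt-Atp8 was not analysed here. The shcircSmad5 library came from iHFSC2 cells, an immortalized line, infected with lentivirus carrying pwslv-shcircSmad5, and the empty vector library from iHFSC2 cells infected with the empty vector. Both lines were selected with puromycin, added at day 4 after infection, and were established at day 15. There was 1 library per group, so no difference has a replicate check and no test was run. Effects of the hairpin cannot be told apart from differences between lines selected on their own, nor, without a line carrying a control hairpin, from effects of any hairpin.

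The respiratory chain carries electrons from NADH and succinate to oxygen through complexes I to IV and pumps protons across the inner mitochondrial membrane, and ATP synthase, also called complex V, uses the proton gradient to make ATP. Mitochondrial DNA encodes a few core subunits of complexes I, III, IV and V, which are transcribed as long polycistronic RNAs and cut at the tRNAs between the genes. All subunits of complex II and all others of the remaining complexes are made from nuclear genes and imported. Hair follicle stem cells are known for a strongly glycolytic metabolism.

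The total gene count was 38382081 in the shcircSmad5 library and 39261010 in the empty vector library, and 13596 genes reached 20 counts in at least 1 of them. Basal keratinocyte genes were abundant: Krt5, a keratin of the basal layer, had 224675 counts in the shcircSmad5 library and 206538 in the empty vector library. Of the bulge stem cell markers, Cd34 had 0 counts in both libraries and Lhx2 had 5 in shcircSmad5 and 4 in empty vector, while Sox9, a bulge stem cell factor, had 5301 in shcircSmad5 and 8829 in empty vector. Krt15, another bulge keratin, had 79 counts in shcircSmad5 and 253 in empty vector. The 6 fibroblast markers summed to 66 counts in the shcircSmad5 library and 161 in the empty vector library, nearly all from Pdgfra, with Col1a1, Lum and Dcn at 0 in both. The 2 endothelial markers summed to 27 counts in shcircSmad5 and 81 in empty vector, all from Pecam1, with Cdh5 at 0 in both. Immune markers summed to 225 counts in shcircSmad5 and 257 in empty vector, nearly all from Cd68. Melanocyte markers summed to 32 in shcircSmad5 and 24 in empty vector, muscle markers to 18 and 4, and adipocyte markers to 6 and 0. The part of other cell types in the results was not tested. Smad5 had 3413 counts in the shcircSmad5 library and 3109 in the empty vector library, and a gene count does not separate the circular from the linear RNA.

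Part of the mitochondrial genome is present a second time in the nucleus, and this bears on several of the mitochondrial values. In GENCODE M21 (GRCm38) a run of pseudogenes on the minus strand of chromosome 1, from Gm28439 (24611535 to 24612410) to Gm29216 (24615706 to 24616197), repeats the mitochondrial sequence from the last part of mt-Co1 to the first part of mt-Nd4. Gm28661 is identical to mt-Co2 over all 681 of its bases, Gm10925 to mt-Atp6 over 678, Gm28437 to mt-Co3 over 783, and Gm10222 to mt-Nd4l over 294. Gm28438 differs from mt-Nd3 at 1 of 345 bases, T3C, counted from 1 at the first base of the gene, with the mitochondrial base first. The starts of 2 such pairs are shown, because most short reads from them match both genomes equally. They come from the GENCODE M21 transcripts and are written 5′ to 3′ on the strand of the gene, in lower case, with the base that differs within a pair in capitals.
mt-Co2, chrM:7013-7102, plus strand: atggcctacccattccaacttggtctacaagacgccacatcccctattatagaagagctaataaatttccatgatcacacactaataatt
Gm28661, chr1:24615476-24615565, minus strand: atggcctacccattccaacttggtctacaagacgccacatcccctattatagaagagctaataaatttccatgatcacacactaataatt
mt-Nd3, chrM:9459-9518, plus strand: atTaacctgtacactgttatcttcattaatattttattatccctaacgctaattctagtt
Gm28438, chr1:24613060-24613119, minus strand: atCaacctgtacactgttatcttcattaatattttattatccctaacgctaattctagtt

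The share of each gene's 50-base words that also occur in a transcript of another gene was 100% for mt-Co2, 99.9% for mt-Co3, 99.5% for mt-Atp6, 98.8% for mt-Nd4l and 98.0% for mt-Nd3. It was 62.2% for mt-Nd4 and 51.1% for mt-Co1, and between 0 and 8.19% for mt-Nd1, mt-Nd2, mt-Nd5, mt-Nd6 and mt-Cytb. The genes with a nearly full copy had the low levels. Their deposited FPKM, a read count scaled to gene length and library total, lay between 0.749 and 17.7 in the shcircSmad5 library and between 1.20 and 24.6 in the empty vector library. The other 7 lay between 184 and 5126 FPKM in the shcircSmad5 library and between 232 and 5583 FPKM in the empty vector library. The pseudogenes of the chromosome 1 run that match these 5 genes held counts at or above those of their partners. Gm28661 had 525 counts in the shcircSmad5 library and 543 in the empty vector library, where mt-Co2 had 433 in shcircSmad5 and 409 in empty vector. The copies of parts of mt-Co1 and mt-Nd4 held far fewer than their partners, with 754 counts in shcircSmad5 and 847 in empty vector for Gm29216, and 166 in shcircSmad5 and 176 in empty vector for Gm28439. How reads that match several places were counted is not given in the sources used here, so the values of mt-Co2, mt-Co3, mt-Atp6, mt-Nd3 and mt-Nd4l are uncertain, as levels and as ratios. Reads from the shared parts of mt-Nd4 (62.2%) and mt-Co1 (51.1%) are open to the same uncertainty, so the values of these genes carry it in part.

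**Figure D1:**
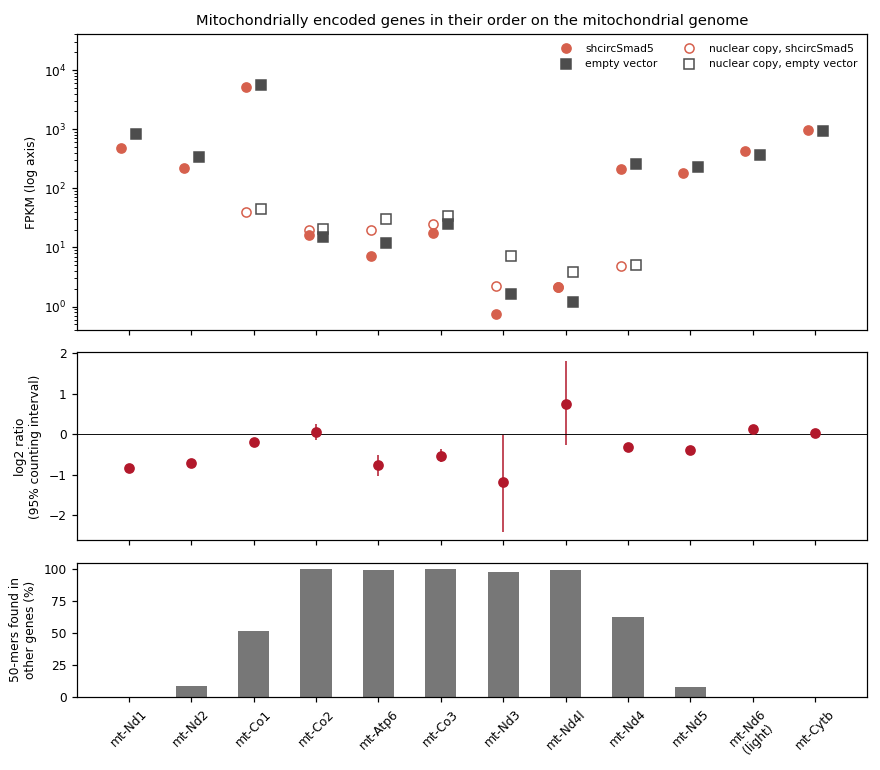
The 12 mitochondrially encoded genes in their order on the mitochondrial genome, with FPKM on a log axis in the shcircSmad5 library (circles) and the empty vector library (squares) and the pseudogene copy on chromosome 1 as open symbols (top), the log2 ratio of shcircSmad5 over empty vector with its 95% counting interval (middle), and the percent of 50-base words found in other genes (bottom); "light" marks mt-Nd6, the one gene on the opposite strand. The mitochondrial genes from mt-Co2 to mt-Nd4l lie at 24.6 FPKM or less, the others at 184 FPKM or more.

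The mitochondrially encoded genes differed among themselves, from lower to slightly higher in the shcircSmad5 library. Ratios are shcircSmad5 over empty vector after TMM scaling, and the interval of each covers counting error only. mt-Nd1 and mt-Nd2, membrane subunits of complex I at the start of the protein-coding part of the genome, were lowest among the 7 genes without a full copy. mt-Nd1 had 17623 counts in the shcircSmad5 library and 30796 in the empty vector library, a log2 ratio of -0.84 (95% counting interval -0.86 to -0.81), or 56.0% of the empty vector level. In bulk RNA, fewer cells of a type and less RNA per cell cannot be told apart. mt-Nd2 had 8762 counts in the shcircSmad5 library against 14014 in the empty vector library, a log2 ratio of -0.71 (-0.75 to -0.67). mt-Nd5 and mt-Nd4, which form the proton-pumping end of the complex I membrane arm, were lower by less. mt-Nd5 had 12893 counts in shcircSmad5 and 16636 in empty vector, a log2 ratio of -0.40 (-0.43 to -0.36). mt-Nd4 had 11283 counts in shcircSmad5 and 13871 in empty vector, a log2 ratio of -0.33 (-0.36 to -0.29).

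mt-Cytb and mt-Nd6 had ratios closer to 0 and above it. mt-Cytb, the cytochrome b of complex III, had 42956 counts in the shcircSmad5 library and 41163 in the empty vector library, a log2 ratio of 0.03 (0.01 to 0.05). mt-Nd6, the one member transcribed from the light strand and not with the other 11, had 8388 counts in the shcircSmad5 library and 7466 in the empty vector library, a log2 ratio of 0.14 (0.09 to 0.18). Of the complex I members among these 7 genes, mt-Nd6 was the one with a ratio above 0. Its last bases overlap those of mt-Nd5 on the other strand, and the strand setting of the counting is not given in the sources used here.

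mt-Co1, the catalytic subunit of cytochrome c oxidase, held most of the counts of the group, with 303982 in the shcircSmad5 library and 338671 in the empty vector library. That was 74.7% of all mitochondrially encoded counts in shcircSmad5 and 73.0% in empty vector. These shares are uncertain, because the total includes the genes with a nearly full copy. mt-Co1 itself shares 51.1% of its 50-base words with other genes. Its log2 ratio was -0.19 (-0.19 to -0.18). Per length, mt-Co1 stood at 5126 FPKM in the shcircSmad5 library and 5583 FPKM in the empty vector library. Among the genes without a nearly full copy, the next level was that of mt-Cytb, at 978 FPKM in shcircSmad5 and 916 FPKM in empty vector. mt-Nd1, mt-Nd6, mt-Nd2, mt-Nd4 and mt-Nd5 spanned 184 to 480 FPKM in the shcircSmad5 library and 232 to 820 FPKM in the empty vector library. mt-Nd1 stood above mt-Nd6 in both libraries, at 480 against 421 FPKM in the shcircSmad5 library and at 820 against 366 FPKM in the empty vector library.

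The 5 genes with a nearly full copy on chromosome 1 had few counts and wider intervals. mt-Nd3, a complex I subunit, had 10 counts in the shcircSmad5 library and 22 in the empty vector library, a log2 ratio of -1.17 (-2.41 to -0.03). mt-Nd4l, another small complex I subunit, had 24 counts in shcircSmad5 and 14 in empty vector, a log2 ratio of 0.75 (-0.26 to 1.81). mt-Atp6, the proton channel subunit of ATP synthase, had 189 counts in shcircSmad5 and 315 in empty vector, a log2 ratio of -0.77 (-1.03 to -0.50). mt-Co3, a core subunit of cytochrome c oxidase, had 534 counts in shcircSmad5 and 757 in empty vector (log2 ratio -0.53), and mt-Co2, which takes electrons from cytochrome c, had 433 counts in shcircSmad5 and 409 in empty vector (log2 ratio 0.05). With the counts of its chromosome 1 copy added, the log2 ratio was -1.63 for mt-Nd3 (-2.19 to -1.09), -0.70 for mt-Atp6 (-0.84 to -0.56), -0.53 for mt-Co3 (-0.64 to -0.43), and -0.02 for mt-Co2 (-0.15 to 0.11). For mt-Nd4l the sum turned the sign, to -0.30 (-0.89 to 0.27). mt-Co2 and mt-Atp6 also share 50-base words with a further pseudogene each, Gm13341 and AC124578.3, whose counts were not added. Over the whole set, 8 of the 12 mitochondrial genes had a counting interval below 0 and 2 had one above it. Among all genes with at least 20 counts, 38.5% had an interval below 0 and 34.9% had one above it.

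The nuclear subunits were near level as a group. The median log2 ratio was -0.36 over the 12 mitochondrially encoded genes and -0.01 over the 76 nuclear genes with at least 20 counts, a difference of -0.36. Over all 13596 genes with at least 20 counts the median was -0.02. Without the 5 genes that have a nearly full copy, a setting added after the data were seen, the mitochondrial median was -0.33. As summed counts, mitochondrially encoded genes had 407077 in the shcircSmad5 library and 464134 in the empty vector library, or 1.06% of all gene counts in shcircSmad5 (95% Clopper-Pearson interval 1.06 to 1.06) and 1.18% in empty vector (1.18 to 1.19). Nuclear members had 202370 counts in the shcircSmad5 library and 204424 in the empty vector library, or 0.527% in shcircSmad5 (0.525 to 0.530) and 0.521% in empty vector (0.518 to 0.523). The log2 ratio of the sums was -0.22 (-0.23 to -0.21) for the mitochondrial genes and -0.04 (-0.05 to -0.04) for the nuclear genes. The nuclear direction depends on the scaling: after TMM the sum was lower in shcircSmad5, and as a share of total counts it was higher. mt-Co1 carries most of the first sum, which was -0.31 (-0.33 to -0.30) without it. The 5 genes with a nearly full copy added only 1190 counts to the mitochondrial sum in shcircSmad5 and 1517 in empty vector. The intervals of the mitochondrial shares do not cover the uncertainty from reads that match several places.

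Genes were called by a rule of size, which asks for 20 counts or more in at least 1 library, a difference of 2-fold or more, and a counting interval that does not hold 0 on the log2 scale. Of the 88 members with at least 20 counts, 0 were higher and 1, mt-Nd3, was lower. Among all 13596 genes, 8.43% were higher and 6.24% were lower. The single call rests on 10 counts in shcircSmad5 and 22 in empty vector, in a gene whose sequence is shared with chromosome 1. It was lost under scaling to total counts, where the log2 ratio of mt-Nd3 was -1.10, still past 2-fold, and the counting interval held 0. Upper quartile scaling and the deposited FPKM, at -1.10 and -1.01, lost it too. Nuclear members also spread less than all genes, with 86.8% of the 76 inside 0.5 log2 units of 0, against 65.6% of all genes and 75.3% of protein-coding genes with at least 100 counts. Members are abundant genes with small counting error, and that part of the difference was not tested.

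Per length, most nuclear genes stood below the mitochondrial genes without a full copy, though the ranges overlapped. The 76 nuclear genes had a median of 21.04 FPKM in the shcircSmad5 library and 20.56 FPKM in the empty vector library, and spanned 0.880 to 307 FPKM in the shcircSmad5 library and 0.552 to 281 FPKM in the empty vector library. The 7 mitochondrial genes without a full copy had a median of 421 FPKM in shcircSmad5 and 366 FPKM in empty vector. These levels depend on the length used: the deposited FPKM divide by the summed exon length of all annotated transcripts, which exceeded 3 times the principal transcript in 13 of the 80 nuclear members that have one in the annotation. Atp5l, at 11.8 times, and Ndufb7, at 7.26 times, had the largest such ratios.

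**Figure D2:**
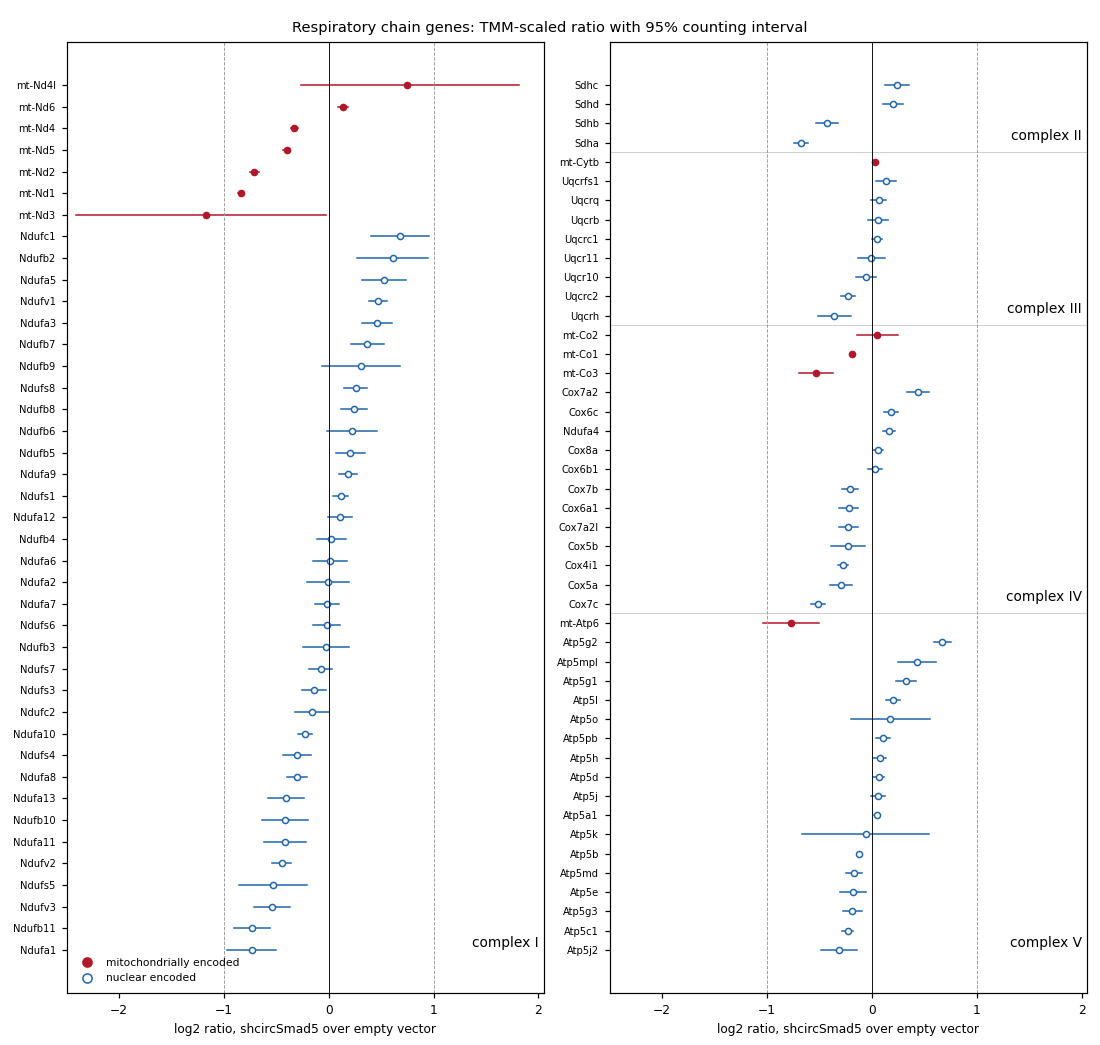
Log2 ratio of shcircSmad5 over empty vector for 87 of the 88 members with at least 20 counts, by complex, with mitochondrially encoded genes as filled red points, nuclear genes as open blue points, bars for the 95% counting interval and dashed lines at a 2-fold difference. The nuclear members lie between -0.73 and 0.68, while mt-Atp6 at -0.77, mt-Nd1 at -0.84 and mt-Nd3 at -1.17 lie below all of them.

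Complex I, the NADH dehydrogenase, has the most members. Its 35 nuclear subunits with at least 20 counts had a median log2 ratio of -0.02, against -0.40 for its 7 mitochondrial subunits. Of the nuclear subunits, 13 had a counting interval below 0, 11 above 0 and 11 holding 0. The shares over all genes with at least 20 counts were 38.5% below 0 and 34.9% above it. The 7 nuclear core subunits, which carry the flavin and the iron-sulphur clusters, had a median of -0.07, and the 28 accessory subunits one of -0.01. Within the core the directions differed. Ndufv1, which binds NADH and the flavin, had 2596 counts in the shcircSmad5 library and 1834 in the empty vector library, a log2 ratio of 0.47 (0.38 to 0.56). Its direct partner Ndufv2 had 1765 counts in shcircSmad5 and 2358 in empty vector, a log2 ratio of -0.45 (-0.54 to -0.36). Ndufv2 lies on chromosome 17, whose genes had a median of -0.38. Relative to the medians of their own chromosomes, Ndufv1 was at 0.33 and Ndufv2 at -0.07. Of the others, Ndufs8, an iron-sulphur subunit, was at 0.26 and Ndufs3 at -0.14.

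Among accessory subunits, Ndufc1 had the highest ratio, with 291 counts in the shcircSmad5 library and 178 in the empty vector library (log2 ratio 0.68, interval 0.41 to 0.96). Ndufb2 followed with 190 counts in shcircSmad5 and 122 in empty vector (0.61), then Ndufa5 with 481 counts in shcircSmad5 and 327 in empty vector (0.53). At the other end, Ndufa1, needed for assembly of the membrane arm, had 246 counts in the shcircSmad5 library and 401 in the empty vector library, a log2 ratio of -0.73 (-0.97 to -0.50). Ndufb11 had 450 counts in shcircSmad5 and 731 in empty vector and the same log2 ratio of -0.73 (-0.90 to -0.56). Ndufa1 and Ndufb11 lie on the X chromosome. The nuclear complex I gene with the highest level per length was Ndufa8, at 48.5 FPKM in the shcircSmad5 library and 57.4 FPKM in the empty vector library.

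Complex II, succinate dehydrogenase, has no mitochondrial subunit, and its 4 genes split by role. The catalytic flavoprotein gene Sdha had 2796 counts in the shcircSmad5 library and 4379 in the empty vector library, a log2 ratio of -0.68 (-0.75 to -0.61). Sdhb, the iron-sulphur subunit, had 1307 counts in shcircSmad5 and 1725 in empty vector, a log2 ratio of -0.43 (-0.54 to -0.33). The membrane anchor genes were higher by a smaller amount, with Sdhc at 1338 counts in shcircSmad5 and 1110 in empty vector (0.24, interval 0.12 to 0.36) and Sdhd at 1987 counts in shcircSmad5 and 1693 in empty vector (0.20, interval 0.11 to 0.30). The catalytic pair thus stood below the anchor pair by more than counting error, with none of the 4 past the 2-fold limit. Per length, Sdhd had the highest level of the 4, at 42.05 FPKM in shcircSmad5 and 35.03 FPKM in empty vector. Sdha was at 17.7 FPKM in shcircSmad5 and 27.0 FPKM in empty vector. Sdha and Sdhb lie on chromosomes 13 and 4, whose genes had medians of -0.21 and -0.20.

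Complex III, which passes electrons from ubiquinol to cytochrome c, had the narrowest range of ratios. Its 8 nuclear subunits had a median log2 ratio of 0.02, and all lay within 0.5 of 0. Uqcrfs1, the Rieske iron-sulphur protein, had the highest ratio, with 1794 counts in the shcircSmad5 library and 1598 in the empty vector library (0.14, interval 0.04 to 0.24). Uqcrh, the hinge protein, had the lowest, with 589 counts in shcircSmad5 and 739 in empty vector (-0.36, interval -0.52 to -0.20). The core protein genes Uqcrc1 and Uqcrc2 were at 0.05 and -0.22. Per length, Uqcr10 stood at 84.0 FPKM in the shcircSmad5 library and 83.6 FPKM in the empty vector library, and Uqcrb at 55.3 FPKM in shcircSmad5 and 50.8 FPKM in empty vector.

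Of 12 nuclear genes of complex IV, cytochrome c oxidase, 7 had intervals below 0 and 4 above, against 38.5% and 34.9% of all genes. Their median log2 ratio was -0.21. Without members that share at least 10% of their 50-base words with other genes, a setting added after the data were seen, the median was 0.06. Cox7c had the lowest ratio, with 3185 counts in the shcircSmad5 library and 4450 in the empty vector library (-0.51, interval -0.58 to -0.45), and 53.0% of its 50-base words occur in other genes. Cox4i1, the ubiquitous form of the regulatory subunit 4, had 6092 counts in shcircSmad5 and 7205 in empty vector (-0.27, interval -0.32 to -0.22). Cox7a2 had the highest ratio, with 1743 counts in shcircSmad5 and 1255 in empty vector (0.44, interval 0.34 to 0.55). In deposited FPKM, Cox8a was the highest nuclear member, at 307 FPKM in the shcircSmad5 library and 281 FPKM in the empty vector library, followed by Atp5b and Atp5a1 of complex V. Cox6b1, which lies on the outer side of the complex, was next, at 143 FPKM in shcircSmad5 and 134 FPKM in empty vector, a log2 ratio of 0.03. This order rests on summed exon length, which is 2.21 times the principal transcript for Atp5b and 1.13 times for Cox8a. Ndufa4, first assigned to complex I by its name and now placed in complex IV, had 5418 counts in shcircSmad5 and 4744 in empty vector (0.16). Cox7a2l, a factor that joins complexes III and IV into supercomplexes, had 1785 counts in shcircSmad5 and 2041 in empty vector (-0.22).

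Muscle, lung and testis forms of complex IV subunits were near absent in both libraries. Cox6a2 and Cox7a1, the heart and skeletal muscle forms, each had 1 count in the shcircSmad5 library and 0 in the empty vector library. Of their widely expressed counterparts, Cox6a1 had 1989 counts in shcircSmad5 and 2271 in empty vector, and Cox7a2 is given above. Cox7b had 2835 counts in shcircSmad5 and 3207 in empty vector (-0.21). Cox4i2, the hypoxia-responsive lung form, had 0 counts in both, and Cox6b2, the testis form, had 4 in the shcircSmad5 library and 0 in the empty vector library. With Ndufa11b (0 in both) and Ndufb4c (3 in shcircSmad5 and 5 in empty vector), which GENCODE M21 classes as processed pseudogenes, these are the 6 members that did not reach 20 counts.

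ATP synthase had 17 nuclear members, with a median log2 ratio of 0.06, or -0.15 without those that share at least 10% of their 50-base words with other genes. The F1 part, which holds the head where ATP is made and the central stalk, was slightly on the low side, with a median of -0.12 over 5 genes. Atp5b, its catalytic beta subunit, had 35963 counts in the shcircSmad5 library and 38269 in the empty vector library (-0.12, interval -0.14 to -0.10). Atp5a1, the alpha subunit, had 21457 counts in shcircSmad5 and 20375 in empty vector (0.04, interval 0.02 to 0.07). Per length, Atp5b stood at 221 FPKM in the shcircSmad5 library and 230 FPKM in the empty vector library. Atp5a1 followed, at 178 FPKM in shcircSmad5 and 166 FPKM in empty vector. Of the central stalk genes, Atp5c1 (gamma) was at -0.23, Atp5d (delta) at 0.06 and Atp5e (epsilon) at -0.18.

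The membrane ring of ATP synthase is built from a subunit c that 3 genes encode, Atp5g1, Atp5g2 and Atp5g3, with the same mature protein. Their ratios differed. Atp5g2 had 3031 counts in the shcircSmad5 library and 1862 in the empty vector library, a log2 ratio of 0.67 (0.59 to 0.76), the highest in complex V. Atp5g1 had 2160 counts in shcircSmad5 and 1686 in empty vector (0.33, interval 0.23 to 0.42), and Atp5g3 had 1938 counts in shcircSmad5 and 2157 in empty vector (-0.18, interval -0.27 to -0.10). Of the 50-base words of Atp5g2, 87.4% occur in other genes, mainly the pseudogenes Gm10175 and Gm10231, so its value is uncertain. The lowest ratio in complex V among nuclear genes was that of Atp5j2, with 494 counts in shcircSmad5 and 601 in empty vector (-0.31, interval -0.49 to -0.14).

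The sign of the nuclear members' ratios leaned towards that of the chromosome they lie on. The chromosome medians come from these same libraries and include the members, so some lean was fixed in advance. Of the 34 members on the 8 chromosomes whose genes had a median log2 ratio below 0, 28 were below 0, which is 82.4%. Of all 6199 genes tested on these chromosomes, 66.5% were below 0. Of the 42 members on the other 11 chromosomes, 31 were above 0, which is 73.8%, against 61.7% of all 6940 genes tested there. The X chromosome had the lowest median, -0.43, and its 3 members Ndufa1, Ndufb11 and Cox7b were all below 0, at -0.73, -0.73 and -0.21. Chromosome 17 had a median of -0.38, and its 6 members lay between -0.54 (Ndufv3) and -0.02 (Ndufa7). The 67 members elsewhere had a median of 0.04. Relative to their own chromosome, the 76 nuclear members had a median of -0.03 and a range of -0.47 (Sdha) to 0.55 (Ndufc1). The 5 members on chromosome 2 lay close together: Ndufa8, Ndufs3, Atp5c1, Atp5g3 and Atp5e were at -0.31, -0.14, -0.23, -0.18 and -0.18, around a chromosome median of -0.16.

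**Figure D3:**
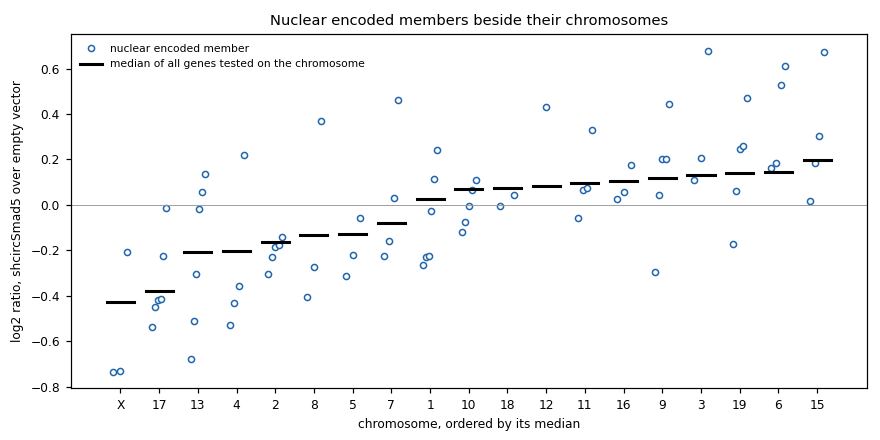
Log2 ratio of shcircSmad5 over empty vector of each of the 76 nuclear members with at least 20 counts (open points) by chromosome, with chromosomes ordered by the median of all their tested genes (black bars). The 3 members on X and the 6 on chromosome 17 all lie below 0, as do the medians of these chromosomes at -0.43 and -0.38.

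Promoter sequence was read for the nuclear members from the RefSeq table of GRCm38.p6, which gives 250 bases before each gene's start and the first bases after it. Of the 82 nuclear members, 66 matched by symbol or by a synonym. NRF1, GABP of the ETS family and YY1 are transcription factors known to act on respiratory genes, and a core word of each was searched on both strands. The NRF1 core GCGCATGC was found in 10 of the 66, which is 15.2%, against 3.05% of all 27025 genes with a promoter, whether or not they had counts here. The YY1 core AAGATGGC was also found in 10, or 15.2%, against 3.19% of all genes. The ETS core CCGGAAGT was found in 5, or 7.58%, against 4.31%. Members with the NRF1 word had a median log2 ratio of -0.03, and those without it -0.02. With the YY1 word the median was 0.08 and without it -0.06, and with the ETS word it was -0.00 and without it -0.03. A match is a description of the letters and shows no binding.

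For each word, the member with the most counts that holds it before its RefSeq start is shown, to give the letters around the word. Bases are 5′ to 3′ on the strand of the gene, with the word in capitals, which appears as its reverse complement where it lies on the other strand.
Atp5l, chr9:44920935-44920992, minus strand, NRF1 core: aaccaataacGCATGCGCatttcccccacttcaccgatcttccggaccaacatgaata
Atp5h, chr11:115419920-115419998, minus strand, ETS core: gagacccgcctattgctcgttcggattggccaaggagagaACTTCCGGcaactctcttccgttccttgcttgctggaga
Atp5j, chr16:84835017-84835104, minus strand, YY1 core: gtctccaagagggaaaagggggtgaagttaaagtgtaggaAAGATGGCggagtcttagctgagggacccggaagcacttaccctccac

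These 3 genes had log2 ratios of 0.20 (Atp5l), 0.07 (Atp5h) and 0.06 (Atp5j). In GENCODE M21, Atp5j begins at base 84835625 of its chromosome and Atp5h at base 115419962, both on the minus strand. The Atp5j stretch and the Atp5h word thus lie inside the genes as annotated there. Exons of Atp5j overlap those of Gabpa, which encodes a subunit of GABP, on the opposite strand. In all, 25 of the 76 nuclear members have exon bases under a gene on the opposite strand, and 9 have at least 10% of them there. The 25 had a median log2 ratio of 0.06 and the 9 one of -0.01, and their counts are uncertain where strand was not used.

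Other genes of mitochondrial function had list medians between -0.19 and 0.32, with few genes called. Of all genes tested, 8.43% were higher and 6.24% lower by the size rule. The 77 genes with Mrpl or Mrps names, listed as mitochondrial ribosomal proteins, had a median log2 ratio of 0.04. By the size rule 0 were higher and 1 was lower, Mrps36 (118 counts in the shcircSmad5 library and 237 in the empty vector library). A name alone does not place the Mrps36 protein in the ribosome. The 22 import genes had a median of 0.03, the 16 complex I assembly factors 0.11, the 18 genes of mitochondrial DNA maintenance and transcription 0.09, and the 11 chaperones and proteases 0.00, with 0 called in each. The 9 translation factor genes had a median of -0.19 and the 8 regulators of respiratory genes one of 0.12, also with 0 called. Pprc1, a coactivator of the PGC-1 family, had 14095 counts in the shcircSmad5 library and 12153 in the empty vector library (0.18), and Yy1 had 5286 counts in shcircSmad5 and 4144 in empty vector (0.32). Twnk, the mitochondrial DNA helicase, was at 0.44, and Polg, the mitochondrial DNA polymerase, at -0.34. Tufm and Gfm1, elongation factors of mitochondrial translation, were at -0.29 and 0.00, and the import receptors Tomm70a and Tomm20 at 0.32 and 0.04. The chaperones Hspa9 and Hspd1 were at -0.02 and 0.00, and the complex I assembly factors Ndufaf4 and Ndufaf1 at -0.60 and -0.13.

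Assembly factors of complexes II to V had a median of 0.32 over 35 genes, with 27 of them above 0, or 77.1%, against 48.7% of all genes. By the size rule 3 were higher and 2 lower, near the 8.43% higher and 6.24% lower among all genes. Cox17, a copper chaperone for cytochrome c oxidase, had 399 counts in the shcircSmad5 library and 124 in the empty vector library, 3.15-fold higher. Atpaf1, an assembly factor of the F1 head, had 275 counts in shcircSmad5 and 109 in empty vector, 2.47-fold higher. Lyrm7, which helps to insert the Rieske protein into complex III, had 158 counts in shcircSmad5 and 34 in empty vector, 4.55-fold higher. Cox20, which handles newly made mt-Co2 protein, had 195 counts in shcircSmad5 and 523 in empty vector, 2.74-fold lower, and Fmc1, an ATP synthase assembly factor, had 17 counts in shcircSmad5 and 54 in empty vector, 3.24-fold lower. Lyrm7 and Fmc1 fall outside the rule for named genes and are given because they complete the count.

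Of 16 citric acid cycle and pyruvate dehydrogenase genes, with a median of -0.11, 1 was higher and 1 lower. Suclg2, the GTP-forming beta subunit of succinyl-CoA ligase, had 2330 counts in the shcircSmad5 library and 1130 in the empty vector library, 2.02-fold higher. Pdha1, the catalytic subunit of pyruvate dehydrogenase, had 3863 counts in shcircSmad5 and 7674 in empty vector, 2.03-fold lower, and lies on the X chromosome. Under scaling to total counts Pdha1 and Mrps36 were within 2-fold, at -0.96 and -0.97, and with each chromosome centred Pdha1, Suclg2 and Mrps36 were so, at -0.59, 0.87 and -0.83. Among 24 genes of mitochondrial RNA processing, with a median of -0.10, 0 were higher and 1 was lower, Ptcd2, which is known in mice for processing of the mt-Cytb transcript (468 counts in shcircSmad5 and 1015 in empty vector, 2.21-fold lower, and -0.94 on the log2 scale with its chromosome centred). mt-Cytb itself was at 0.03. Cycs and Cyc1, cytochrome c and cytochrome c1, which the name rule does not take, were at -0.14 and 0.10, in a list of 4 with a median of -0.02.

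**Figure D4:**
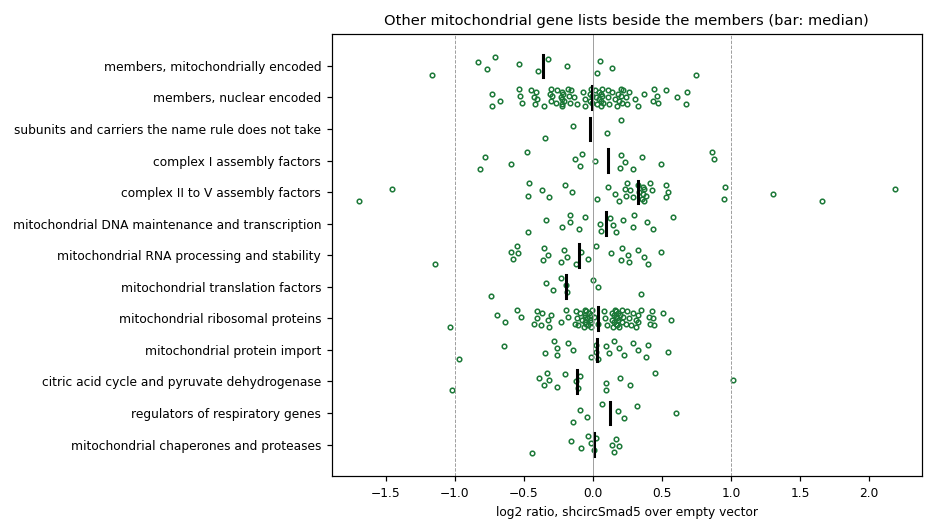
Log2 ratio of shcircSmad5 over empty vector for each gene with at least 20 counts in the members (top) and in the other mitochondrial lists, with black bars for medians and dashed lines at a 2-fold difference. The mitochondrially encoded members have the lowest median, -0.36, and the assembly factors of complexes II to V the highest, 0.32.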

How the data were processed

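RNA of 2 libraries, 1 per group, was sequenced after ribosomal RNA removal with a strand-keeping kit, per the labels' protocols. HISAT2, HTSeq 0.13.5, GRCm38 and GRCh38 are named in the submitters' processing notes without their roles. Not given in the sources used here were annotation, strand setting and the treatment of reads with several matches. The authors deposited a whole-number read count and an FPKM value per gene and library, per the file headers. The deposited FPKM of all 92 members above 0 equal count over total and GENCODE M21 summed exon length.

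TMM factors from edgeR 4.0.16 in R 4.3.3 scaled the counts. A ratio's interval is the exact Clopper-Pearson 95% interval for how its reads divide between the libraries. It covers counting error alone, and reads that carry no molecular identifiers cannot be taken as separate molecules. No test between the groups was run. Simulated counts were used to check the code of the size rule. Alternatives were other scalings, count minimums and fold limits, means, chromosome centring and leaving out genes with copies. List medians set genes under a floor of 3 counts to 3. Positions, and 50-base words shared between transcripts on either strand, came from GENCODE M21. DESeq2 1.42.0 size factors were one of the scalings.

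Named are all mitochondrial members, nuclear members past the size rule, the 2 highest FPKM per complex, the highest and lowest ratio per complex at 100 counts or more, tissue forms, and in each other list up to 3 called genes or the 2 with most counts. Of the members this rule names, 1 result was left out of the text. Other members, and the grouping into core, catalytic and chromosome sets, were chosen after their values were seen. Members and lists were chosen with earlier results of these data known.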

Additional observations from a re-analysis of the deposited data

How the results depend on the processing

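The medians of the mitochondrial members, of the nuclear members, of their difference and of the complexes moved by less than the spread over genes under all alternatives, from -0.36 to -0.30 for the mitochondrial median and from -0.36 to -0.30 for the difference. Medians near 0 changed sign: the nuclear one ranged from -0.03 to 0.06, complex I from -0.03 to 0.05, complex III from -0.07 to 0.09, complex IV from -0.22 to 0.06 and complex V from -0.15 to 0.12. Total counts, upper quartile scaling, totals without the mitochondrial genes and log2(FPKM + 0.1) each left 0 members lower and 3 context genes lower, and gave the assembly factors of complexes II to V medians of 0.39, 0.39, 0.39 and 0.38. A minimum of 100 counts, or leaving out the mitochondrial genes with a nearly full copy, also left 0 members lower, since mt-Nd3 is then not counted. At a fold limit of 1.5, 3 members were higher and 7 lower, and of the context genes 8 were higher and 13 lower. The share of all genes past 1.5-fold is not given here, so these counts have no background to be read against. With each chromosome centred, 2 context genes were lower. Without the 20 other genes with the most counts, mitochondrial members took 1.16% of counts in the shcircSmad5 library and 1.28% in the empty vector library, and nuclear members 0.575% in shcircSmad5 and 0.562% in empty vector. Leaving out genes with copies, and counting Ndufa4 in complex I, were chosen after seeing the data. No paired analysis was possible because each group has 1 library. Depth limits mt-Nd3, mt-Nd4l and Atp5k, each under 50 counts in both libraries.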
